A study of Mus musculus with 12 samples.

Results

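The genes described here make, degrade, bind, sense or respond to retinoic acid, and they were followed in the testes of mice from young adulthood into old age. The 10 genes were chosen by name and role: Rdh10, Aldh1a1 and Aldh1a2 for synthesis, Cyp26a1, Cyp26b1 and Cyp26c1 for degradation, Crabp1 for binding in the cytoplasm, Rara and Rarg as receptors, and Stra8 as a response gene of germ cells. For each gene, the estimated reads of all assembled transcripts that carried its symbol and matched its annotated model, lay within it, or shared a splice junction or exonic sequence with it (class codes =, c, j and o) were summed. All 10 were found among 24516 genes of these classes, through 31 of the 71967 assembled transcripts, 16 of which had a RefSeq identifier. Testis RNA came from 12 wild-type C57BL/6 mice, with 3 mice at each of 3, 6, 12 and 18 months after birth (3M, 6M, 12M and 18M) and 1 library per mouse, named here by age and mouse number (3M-1 to 18M-3). Ribosomal RNA was removed and the library kit kept no strand information. Each library held between 50924104 and 71803379 estimated reads. In whole testis, fewer cells of a type and less RNA per cell cannot be told apart.

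Retinoic acid is made from vitamin A (retinol), which a retinol dehydrogenase turns into retinal and a retinal dehydrogenase then oxidizes to retinoic acid. Enzymes of the CYP26 family clear it, and in the nucleus it binds retinoic acid receptors, which act as dimers with retinoid X receptors on target genes. In the testis, retinoic acid starts the differentiation of spermatogonia and, through Stra8, the entry of germ cells into meiosis.

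The tissue was first checked against markers of its cells. CPM is the read count on the counts-per-million scale after TMM normalization, which balances library composition. The summed CPM of 8 spermatid markers lay between 13140 and 19170 and that of 10 Sertoli markers between 1168 and 1539 over the libraries, and none of these genes was at 0 in any library. Of 9 epididymis markers, 5 were at 0 in every library and the sum of the list did not pass 0.507 CPM. The 8 Leydig markers summed to 899 to 1076 CPM at 3M and 575 to 787 CPM at 18M, with 842 to 1355 at 6M and 650 to 724 at 12M. In the slope on age edgeR called 2 of the 8 lower, Cyp11a1 and Cyp17a1, against 0.178% of all features tested. DESeq2 called 5 lower, against 1.88%, while none of the 8 was at 0. Hsd3b1 was the one Leydig marker with a positive slope (0.0022 log2 per month, SE 0.0151), and it was not called. All 8 spermatid markers had a positive log2 difference between 3M and 18M, but edgeR called 0 of them, against 0.0647% of all features. At an unadjusted p of 0.05 or less there were 3, against 12.0%, and DESeq2 called 1, against 1.02%.

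Per unit of transcript length, in FPKM (fragments scaled by transcript length and library depth), the levels of the 10 genes ran from 0.108 to 58.2 on average. Aldh1a1 was highest with a mean of 58.2 FPKM (SD 13.4 over 12 libraries), and Aldh1a2 followed with 41.6 (SD 1.45). The ranges of these retinal dehydrogenases overlapped, because Aldh1a1 varied from 34.2 to 82.7 FPKM while Aldh1a2 stayed between 39.8 and 43.9. Rara came next with 9.28 FPKM (SD 0.741), above Stra8 with 6.40 (SD 0.718) and with no overlap between them. The gap was narrow, with the lowest Rara library at 7.98 and the highest Stra8 library at 7.87. Of the Rara mean, 1.89 FPKM came from MSTRG.3589.1, a transcript of 427 nt with 28 to 69 reads per library. Stra8, Rdh10 (mean 5.003, SD 0.598), Cyp26b1 (mean 3.81, SD 0.678) and Crabp1 (mean 3.75, SD 0.467) formed a run in which neighbors overlapped. Rarg at 1.07 FPKM (SD 0.123), Cyp26a1 at 0.625 (SD 0.0828) and Cyp26c1 at 0.108 (SD 0.0384) stood apart from their neighbors. Among the degrading enzymes, every library therefore had more Cyp26b1 than Cyp26a1, and more Cyp26a1 than Cyp26c1, per unit of length.

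**Figure D1:**
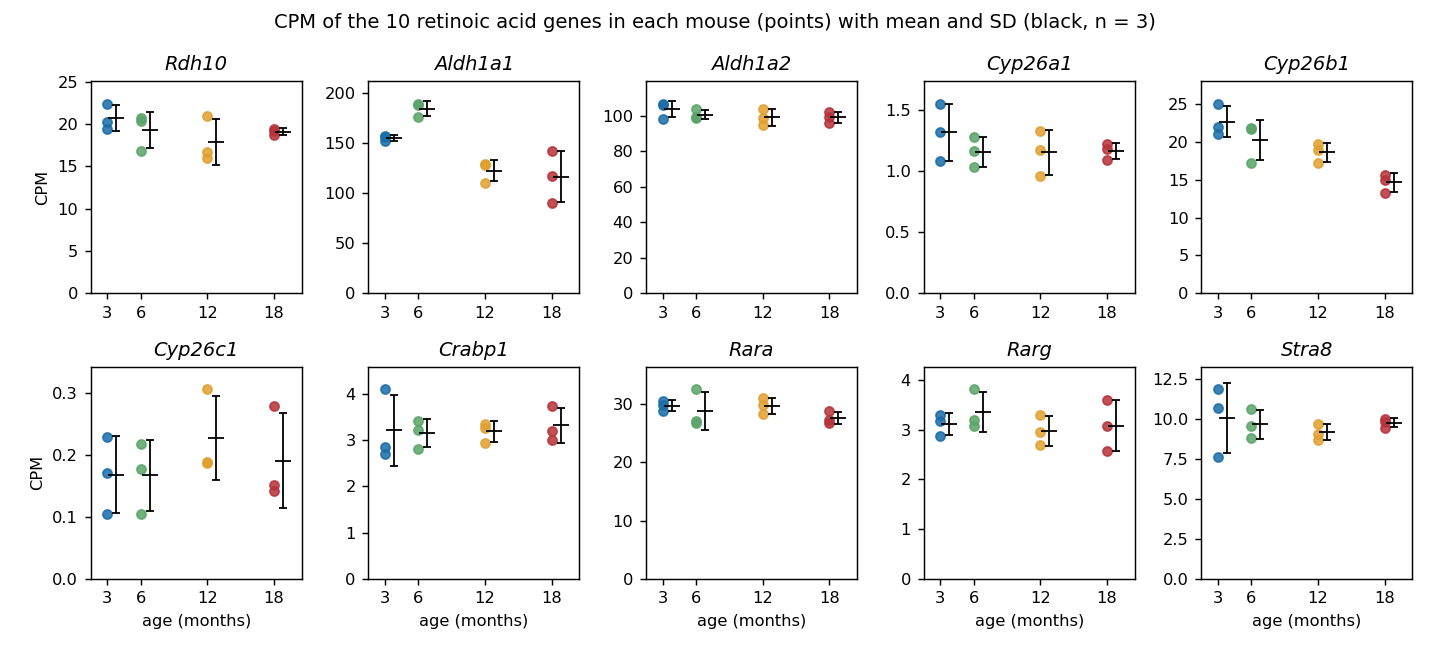
CPM (y axis, from 0) against age in months for each of the 10 genes, with 1 point per mouse and the mean and SD of the 3 mice in black. Cyp26b1 at 18M lies below every 3M library, Aldh1a1 is highest at 6M, and the 3M and 18M points of Aldh1a2, Stra8, Rarg and Crabp1 overlap.

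Change with age was tested in read counts with edgeR over all features, and a gene was called at a Benjamini-Hochberg adjusted p of 0.05 or less. In the slope on age over all 12 libraries, 1 of the 10 genes was called, Cyp26b1, which fell, against 0.178% of all features tested. At an unadjusted p of 0.05 or less there were 2 of 10 (Cyp26b1 and Aldh1a1), against 15.3% of all features. DESeq2 called the same pair, against 1.88%, and limma on FPKM called 0 of 10, against 0.166%. Between 3M and 18M, edgeR called 0 of 9 genes tested, against 0.0647% of all features, with 2 of 9 at an unadjusted p of 0.05 or less, against 12.0%. Cyp26c1 was under the filter on low counts there. DESeq2 called 1 (Cyp26b1) between these ages, against 1.02%, and limma 0, against 0.0557%. In 4 of the 9 tested genes the CPM of all 18M libraries lay below all 3M libraries (Cyp26b1, Aldh1a1, Rdh10 and Rara), against 9.97% of all features. The gap was minute for Rdh10 (lowest 3M library 19.45, highest 18M library 19.44) and for Rara (28.84 and 28.83). In FPKM the 3M and 18M libraries overlapped for Rara and for Aldh1a1, so this count depends on the unit. The median log2 difference of the 9 genes was -0.11, and that of all features 0.01.

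Between consecutive ages, edgeR called none of the genes. From 3M to 6M it called 0 of 9, against 0.0729% of all features, with 1 at an unadjusted p of 0.05 or less (3.94% of all), 1 called by DESeq2 (0.330% of all) and 0 by limma (0.0675% of all). From 6M to 12M it called 0 of 10, against 0.0404%, with 1 at an unadjusted p of 0.05 or less (7.50%), 1 called by DESeq2 (0.432%) and 0 by limma (0.0873%). The gene was Aldh1a1 in both steps. From 12M to 18M it called 0 of 10, against 0.0202%, with Cyp26b1 as the only one at an unadjusted p of 0.05 or less (3.57%) and 0 called by DESeq2 (0.192%) or limma (0.0398%).

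**Figure D2:**
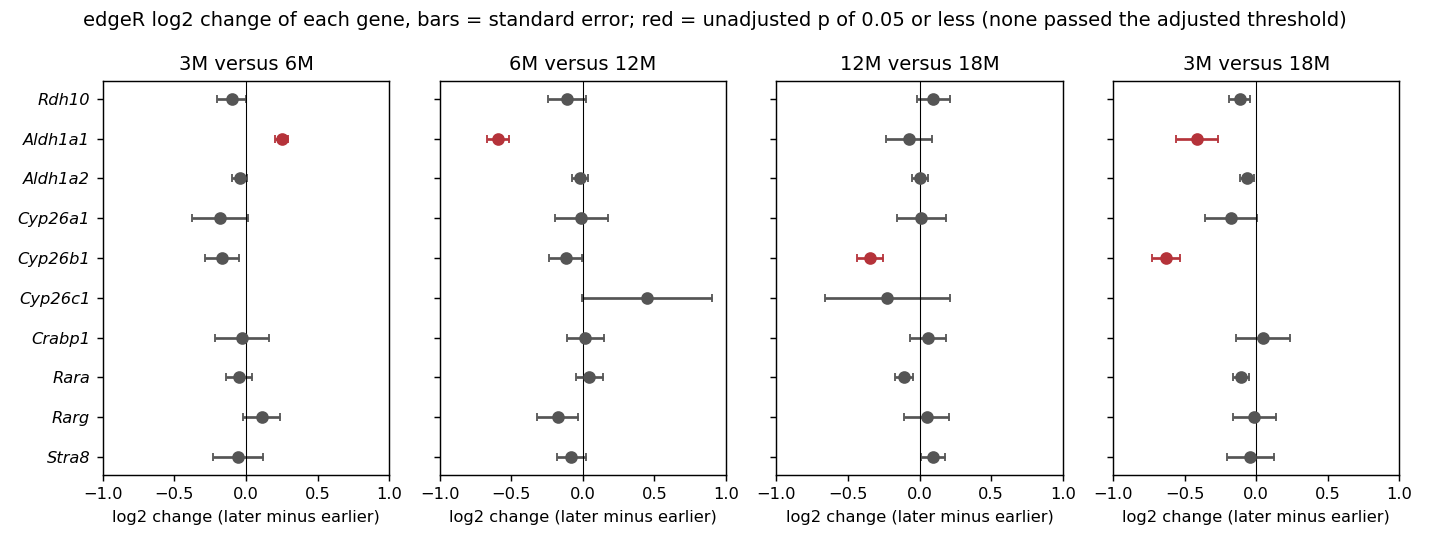
log2 change (x axis, later minus earlier age) of each gene from edgeR in the 4 comparisons of ages, with bars of 1 standard error. Red points had an unadjusted p of 0.05 or less: Aldh1a1 from 3M to 6M and from 6M to 12M, Cyp26b1 from 12M to 18M, and both between 3M and 18M. None passed the adjusted threshold in these pairwise tests, and Cyp26c1 was not tested where no point is drawn.

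Of the enzymes of synthesis, Rdh10, a dehydrogenase that forms retinal (mm10 chr1:16103690-16132550, plus strand, 5 transcripts), was measured at 20.2, 22.4 and 19.5 CPM in the 3M libraries and 20.7, 20.4 and 16.9 at 6M. It was at 16.7, 15.9 and 21.0 CPM at 12M and 19.4, 19.2 and 18.7 at 18M. The 18M libraries lay just below those of 3M, and those of 6M and 12M overlapped both. The log2 difference of -0.11 between 3M and 18M (SE 0.07, edgeR, adjusted p = 0.553) was not called. With only the transcripts that match RefSeq exactly, which for Rdh10 left 23 to 138 of its reads per library, it was -0.90.

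Aldh1a1, a retinal dehydrogenase (chr19:20492063-20643462, plus strand, 5 transcripts), was highest at 6M. It was measured at 156.6, 157.3 and 152.1 CPM in the 3M libraries and at 176.2, 188.2 and 189.5 in those of 6M. At 12M it was at 128.2, 129.4 and 110.4 CPM, and at 18M at 141.9, 116.8 and 90.6. All 6M libraries were above all 3M libraries (as were 5.03% of all features), all 12M libraries were below all 6M libraries (as were 7.19%), and all 18M libraries were below all 3M libraries, while 12M and 18M overlapped. The log2 difference was 0.25 from 3M to 6M (SE 0.05, edgeR adjusted p = 0.511 and DESeq2 adjusted p = 0.0142). From 6M to 12M it was -0.59 (SE 0.07, edgeR adjusted p = 0.122 and DESeq2 adjusted p = 1.71e-08), and from 12M to 18M -0.07 (SE 0.16, adjusted p = 1.0 in edgeR). The slope over all ages was -0.039 per month on the log2 scale (SE 0.010, adjusted p = 0.146 in edgeR and 0.00793 in DESeq2).

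Among the alternatives tried for Aldh1a1, DESeq2 was the one in which any of these steps was called. Over the alternatives, the adjusted p ran up to 1.0 from 3M to 6M, up to 0.823 from 6M to 12M and up to 0.784 for the slope, which without the libraries 12M-3 and 18M-3 was -0.028 per month (adjusted p = 0.366). With exact RefSeq transcripts only, which left a single transcript, the difference between 3M and 18M was -0.07. The values of Aldh1a1 are uncertain in one more way. Aldh1a7 is a close copy of it, and reads of the one gene may have been counted for the other. Aldh1a7 was at 8.57, 9.71 and 8.66 CPM at 3M and 8.10, 6.53 and 5.60 at 18M, with a slope of -0.037 per month (SE 0.011, adjusted p = 0.184 in edgeR and 0.0398 in DESeq2).

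The difference in Aldh1a1 was not even along its transcript. Read depth, on the per-million scale of library reads, in the first segment that all 5 transcripts share (80 nt, chr19:20601998-20602077) was 3.69, 4.12 and 4.45 in the 3M libraries and 2.88, 1.86 and 1.37 in the 18M libraries, without overlap. In the last exon of 569 nt (chr19:20642894-20643462) it was 9.45, 8.55 and 8.49 at 3M and 9.25, 8.92 and 7.21 at 18M, and these ranges overlapped. From 6M to 12M the difference reached the last exon. The last exon was at 10.2, 10.6 and 14.4 at 6M and 9.26, 7.74 and 8.93 at 12M, without overlap, and the segment of 80 nt was at 4.81, 5.04 and 3.06 at 6M and 2.30, 3.09 and 1.72 at 12M, with overlap through 6M-3. The ratio of depth in the third of NM_013467 nearest its 5' end to that in the third nearest its 3' end lay between 0.536 and 0.667 at 3M and between 0.297 and 0.496 at 18M. The same ratio was taken in 1661 single-transcript genes. Its median per library was lowest in 12M-3 (0.662), 18M-3 (0.713) and 18M-2 (0.776) and highest in 3M-2 (0.955). Between 3M and 18M the median log2 change of the ratio over these genes was -0.197, and that of Aldh1a1 was -0.695, with 4.33% of the genes lower still. The part of this in the gene-level change was not tested.

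**Figure D3:**
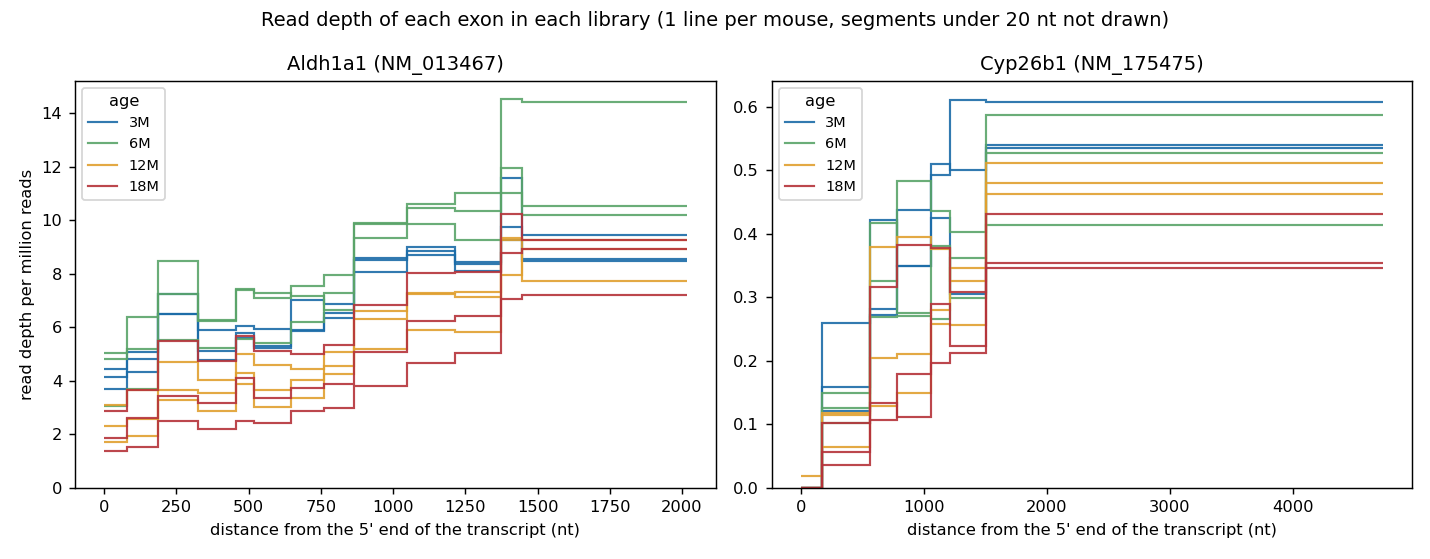
Read depth on the per-million scale (y axis) along the exons of Aldh1a1 and Cyp26b1 (x axis, nt from the 5' end of the named RefSeq transcript), with 1 line per mouse colored by age and segments under 20 nt left out. In Aldh1a1 the 18M lines (red) meet the 3M lines (blue) in the last exon and are mostly lower upstream of it, while in Cyp26b1 all 18M lines are below all 3M lines across the long last exon. Upstream of that exon, the 3M and 18M lines of Cyp26b1 overlap in some exons.

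Aldh1a2, the other retinal dehydrogenase (chr9:71215789-71296243, plus strand, 1 transcript of 14 exons), did not pass the test in any comparison. It was measured at 98.4, 105.9 and 106.8 CPM at 3M, 103.6, 99.3 and 98.8 at 6M, 104.1, 98.8 and 94.6 at 12M, and 96.1, 102.1 and 99.3 at 18M. The libraries of all ages overlapped, and the log2 difference between 3M and 18M was -0.06 (SE 0.05, edgeR, adjusted p = 0.628). All its reads sat on 1 transcript, NM_009022, so that no division between isoforms enters its values.

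The degrading enzymes included the gene that fell. Cyp26b1 (chr6:84571414-84593908, minus strand, 4 transcripts) encodes the CYP26 enzyme that was highest in these libraries. It was measured at 21.1, 25.1 and 21.97 CPM in the 3M libraries and 17.2, 21.9 and 21.7 at 6M. At 12M it was at 19.0, 19.7 and 17.3 CPM, and at 18M at 14.98, 13.3 and 15.7. Every 18M library was below every library of the 3 younger ages, and all 18M libraries were below all 12M libraries in 4.25% of all features. The slope was -0.039 per month on the log2 scale (SE 0.0067, edgeR adjusted p = 0.0432), which over 15 months comes to -0.59 (SE 0.10). The difference between 3M and 18M was -0.63 (SE 0.10), a level at 18M 0.646 times that at 3M, with an edgeR adjusted p of 0.246 and a DESeq2 adjusted p of 9.83e-06. From 12M to 18M it was -0.35 (SE 0.09, edgeR adjusted p = 1.0), and the smaller steps of -0.17 (SE 0.12) from 3M to 6M and -0.12 (SE 0.11) from 6M to 12M were not called.

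The call of the Cyp26b1 slope lay close to the threshold. It was lost on leaving out any single library except 6M-1, in 11 of 12 cases, with the slope between -0.042 and -0.035 and the adjusted p between 0.0168 and 0.130 over all 12 cases. It held with the size factors of DESeq2 (adjusted p = 0.0432), with library size alone (0.0429), in DESeq2 (1.11e-05) and with transcripts of every class (0.0381). It did not hold with limma on FPKM (0.0633), without the filter on low counts (0.0512), with exact RefSeq transcripts only (0.637) or without the libraries 12M-3 and 18M-3, whose 5'-to-3' ratios were the lowest (slope -0.041, adjusted p = 0.161). The slope was negative in each of these fits, and -0.23 with exact RefSeq transcripts, which had 0 reads in 7 of 12 libraries for NM_175475.

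The fall of Cyp26b1 was seen in its last exon, which holds most of its length. In that exon of 3236 nt (chr6:84571424-84574659) the read depth on the per-million scale was 0.540, 0.607 and 0.535 in the 3M libraries and 0.347, 0.353 and 0.431 in the 18M libraries, without overlap. The difference was not even along the transcript. As log2 of mean depth at 18M over 3M it was -0.573 in the last exon. In the other exons that all transcripts of the gene share it was -0.813, -0.757, -0.725 and -0.928, from 5' to 3'. Among these other exons, only that of 156 nt had 3M and 18M libraries without overlap. The ratio of 5' to 3' depth of Cyp26b1 lay between 0.492 and 0.615 at 3M and between 0.313 and 0.715 at 18M, and the ranges overlapped. Between these ages the log2 change of the ratio was -0.335, beside a median of -0.197 over the 1661 genes, with 26.7% of them lower still. The part of this in the gene-level change of Cyp26b1 was not tested. The 8 markers of peritubular myoid cells summed to 388 to 418 CPM at 3M and 389 to 419 at 18M, and the 10 Sertoli markers to 1188 to 1240 and 1196 to 1263. In the slope on age edgeR called 0 of either list, against 0.178% of all features, and DESeq2 called 0, against 1.88%. Lists of 8 and 10 genes are too short to set 0 calls apart from these shares. At an unadjusted p of 0.05 or less there were 1 peritubular marker, Mylk, and 0 Sertoli markers, against 15.3% of all features. Mylk was lower (slope -0.0078 per month, SE 0.0032). In the peritubular list only Actg2 had a positive slope (0.0073, SE 0.0034), so the level sum does not show the direction of most of its genes. The Leydig list, given above, was lower at 18M than at 3M and lower at 12M than at 6M, both without overlap, and its part in the levels of Cyp26b1 and Aldh1a1 was not tested.

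The reads of Cyp26b1 were divided among its 4 transcripts differently from library to library. In 3M-1 all of its reads, and in 3M-3 99.4%, were given to the assembled transcript MSTRG.17067.4, and in 3M-2 98.9% to the RefSeq transcript NM_175475. In 8 of the other 9 libraries MSTRG.17067.3 led, with 66.3% to 97.8%, and in 18M-3 MSTRG.17067.4 led with 62.2%. These transcripts share the last exons and differ at the 5' end. The segment of 145 nt that is specific to NM_175475 (chr6:84593640-84593784) had a depth of 0 in all 3M libraries, among them 3M-2, in which that transcript had 1411 reads. MSTRG.17067.3 had 0, 6 and 7 reads at 3M and 706, 683 and 425 at 18M, a log2 difference of 7.05 (edgeR adjusted p = 0.382, DESeq2 called), while the gene sum was lower at 18M.

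**Figure D4:**
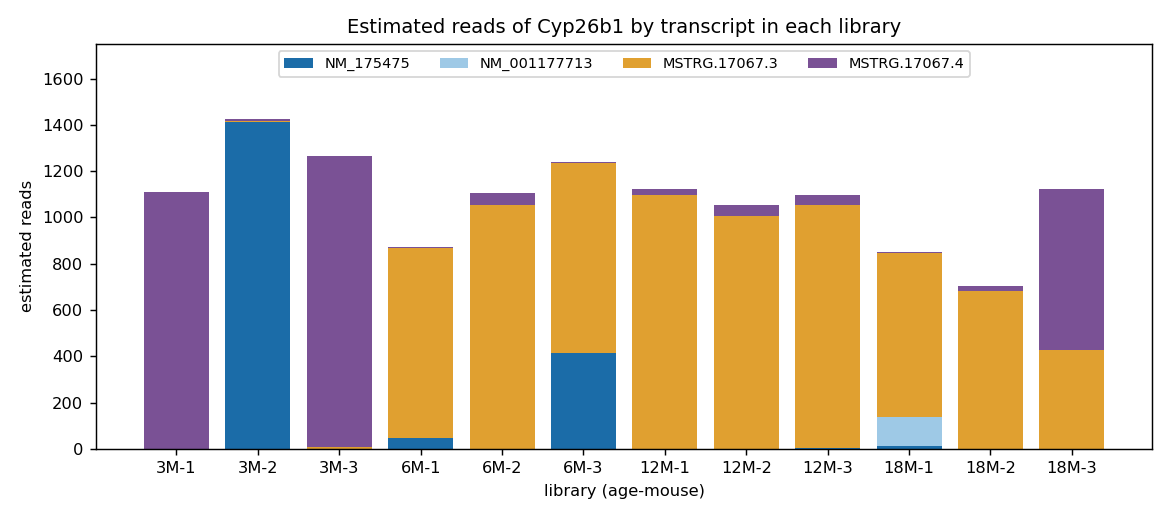
Estimated reads of Cyp26b1 (y axis, from 0) in each of the 12 libraries, with colors for its 4 transcripts. The transcript that holds most reads differs between 3M-1, 3M-2 and the 6M and 12M libraries, while the total runs from 702 to 1427 reads.

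Cyp26a1, the family member best known as a direct target of retinoic acid (chr19:37697808-37701536, plus strand, 1 transcript), was low, with 52 to 88 estimated reads per library. It was measured at 1.31, 1.55 and 1.08 CPM at 3M, 1.16, 1.03 and 1.28 at 6M, 1.17, 1.33 and 0.961 at 12M, and 1.22, 1.18 and 1.09 at 18M. All ages overlapped, and the log2 difference between 3M and 18M was -0.18 (SE 0.18, edgeR, adjusted p = 0.721). Cyp26c1, the third enzyme (chr19:37685680-37693307, plus strand), is the neighbor of Cyp26a1 on the chromosome and had 6 to 20 reads per library, or 0.104 to 0.306 CPM. Its slope was 0.020 per month (SE 0.027, edgeR, adjusted p = 0.763), and its precision is limited by these few reads.

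Retinoic acid receptors bind pairs of half-sites, and the promoters of 9 of the 10 genes were searched for them in windows from 250 bases before to 50 after the start of transcription (RefSeq, GRCm38.p6). Rdh10 was not among the windows. The half-sites searched on both strands were AGGTCA, the common form, and its variants AGTTCA, which differs in the middle, GGGTCA, which differs at the start, and GGTTCA, which differs in both. A direct repeat with 5 bases between half-sites, on either strand, was found in 0.0974% of 32851 windows of all genes and, among the 14 windows of these genes, in that of Cyp26a1 alone. Repeats with 1 and 2 bases between, held by 0.222% and 0.268% of all windows, were in none of the 14. A single half-site was in 43.7% of all windows and in 6 of the 14. The 250 bases before the start are shown for Cyp26a1, which has the repeat, for Cyp26b1, the gene that fell, and for Stra8, the response gene, at chr19:37697558-37697807 (plus strand), chr6:84593811-84594060 (minus strand) and chr6:34920698-34920947 (plus strand), with every half-site in capitals. A match is a description of the letters and no evidence of binding.
Cyp26a1: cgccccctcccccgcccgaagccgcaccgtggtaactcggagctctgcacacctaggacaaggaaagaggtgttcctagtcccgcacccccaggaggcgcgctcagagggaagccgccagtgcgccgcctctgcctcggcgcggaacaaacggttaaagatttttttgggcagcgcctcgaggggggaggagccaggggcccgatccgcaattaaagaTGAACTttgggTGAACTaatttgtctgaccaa
Cyp26b1: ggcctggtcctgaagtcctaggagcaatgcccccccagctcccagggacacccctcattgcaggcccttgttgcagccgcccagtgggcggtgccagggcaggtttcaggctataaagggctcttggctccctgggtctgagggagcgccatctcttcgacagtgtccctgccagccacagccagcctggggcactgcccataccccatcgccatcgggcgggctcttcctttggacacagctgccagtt
Stra8: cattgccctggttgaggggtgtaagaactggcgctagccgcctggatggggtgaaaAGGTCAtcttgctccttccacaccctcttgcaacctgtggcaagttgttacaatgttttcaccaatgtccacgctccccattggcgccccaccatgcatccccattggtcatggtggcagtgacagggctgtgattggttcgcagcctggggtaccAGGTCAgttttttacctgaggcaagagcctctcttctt
In Cyp26a1 the first base of the repeat lies 32 bases before the start, and both of its half-sites read AGTTCA on the opposite strand. The window of Cyp26b1, which lies before the start of NM_175475, held no half-site. The transcripts that were given most reads in 11 of 12 libraries, MSTRG.17067.3 and MSTRG.17067.4, start further downstream, at 84587461 and 84588710, and the sequence before those starts was not searched. The first segments of NM_175475 had a depth at or near 0 in nearly all libraries. The window of Stra8 held 2 that form no such repeat.

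Crabp1, a cytoplasmic binding protein for retinoic acid (chr9:54764748-54773110, plus strand), was measured at 2.70, 2.85 and 4.10 CPM at 3M, 2.82, 3.23 and 3.41 at 6M, 3.28, 3.36 and 2.95 at 12M, and 3.02, 3.74 and 3.21 at 18M. The 3M libraries spanned those of all other ages. The log2 difference between 3M and 18M was 0.05 (SE 0.19, edgeR, adjusted p = 0.939).

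Neither receptor passed the test in any comparison. Rara (chr11:98925112-98974942, plus strand, 8 transcripts) was measured at 29.9, 30.6 and 28.8 CPM at 3M, 27.1, 26.7 and 32.6 at 6M, 28.3, 31.1 and 29.8 at 12M, and 27.3, 26.8 and 28.8 at 18M. The highest 18M library, at 28.83 CPM, was just under the lowest 3M library, at 28.84. The log2 difference between these ages was -0.11 (SE 0.06, edgeR, adjusted p = 0.485). An assembled transcript on the other strand, MSTRG.3591.1, lies over Rara and is outside the classes summed. It was at 13.1, 13.1 and 13.5 CPM at 3M and 14.9, 16.7 and 16.5 at 18M, without overlap (log2 difference 0.28, SE 0.11, edgeR over transcripts, adjusted p = 0.92). The libraries keep no strand, so reads of Rara and of this transcript cannot be told apart where they overlap, and with it added the difference of Rara turned to 0.02.

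Rarg (chr15:102234938-102257522, minus strand, 2 transcripts) was the lower receptor, with 3.30, 2.87 and 3.18 CPM at 3M and 3.60, 2.56 and 3.08 at 18M. It was at 3.19, 3.07 and 3.81 CPM at 6M and 2.95, 3.29 and 2.69 at 12M, and all ages overlapped. The log2 difference between 3M and 18M was -0.01 (SE 0.15, edgeR, adjusted p = 0.978).

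Stra8, the germ cell gene that retinoic acid induces before meiosis (chr6:34920960-34939342, plus strand, 2 transcripts), was measured at 10.7, 11.9 and 7.61 CPM at 3M and 10.7, 8.84 and 9.53 at 6M. It was at 8.69, 9.70 and 9.09 CPM at 12M and 9.44, 9.84 and 10 at 18M. The 3M library 3M-3 was the lowest of all 12 and 3M-2 the highest, so that 3M spanned the other ages. The log2 difference between 3M and 18M was -0.04 (SE 0.16, edgeR, adjusted p = 0.935), and leaving out 1 library moved it between -0.21 and 0.09. The 10 markers of spermatogonia summed to 124 to 130 CPM at 3M and 125 to 129 at 18M. They include markers of undifferentiated cells such as Zbtb16, so the sum does not measure the cells that express Stra8. Their slopes went both ways, as with Zbtb16 (-0.028 per month, SE 0.010) and Id4 (0.010, SE 0.0048), and edgeR called neither of these.

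At the level of transcripts, edgeR tested 23 of the 31 transcripts of these genes between 3M and 18M and called 0, against 0.108% of all transcripts tested, with 2 at an unadjusted p of 0.05 or less. DESeq2 called 1, MSTRG.17067.3 of Cyp26b1, against 3.16%. In the slope on age edgeR called 0 of 28, against 0.0103%, with 3 at an unadjusted p of 0.05 or less, and DESeq2 called 0 of 31, against 1.58%. The share of all transcripts at an unadjusted p of 0.05 or less was not taken, so the unadjusted counts cannot be weighed. Of the 5 transcripts of Aldh1a1, NM_013467 led in every library with 48.1% to 91.0% of the reads, a mean of 43.4 FPKM and a log2 difference of -0.07 between 3M and 18M (SE 0.35, edgeR, adjusted p = 0.999). The other 4, MSTRG.10423.1 to MSTRG.10423.4, had means of 2.88, 2.50, 4.37 and 4.998 FPKM. MSTRG.10423.1 ran from 3 reads in 18M-3 to 1512 in 6M-2, and within 18M it had 29, 620 and 3 reads, so that mice of 1 age differed widely.

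For Rdh10 the transcript MSTRG.58.4 (mean 3.06 FPKM) led in 11 of 12 libraries and MSTRG.58.1 (0.906) in 18M-1, while the RefSeq transcript NM_133832 (0.575) had 88, 132 and 74 reads at 3M and 63, 43 and 66 at 18M (log2 difference -0.90, edgeR, adjusted p = 0.9). For Rara, MSTRG.3590.5 (2.27 FPKM) led in all 12 with 37.0% to 60.0% of the reads. Its other transcripts above 0.5 FPKM were MSTRG.3589.1 (1.89), MSTRG.3590.7 (1.78), NM_001176528 (1.29), MSTRG.3590.1 (1.22) and NM_009024 (0.623). Stra8 was given mostly to NM_009292 (5.0 FPKM, 68.2% to 92.4% of the reads) and less to MSTRG.16719.1 (1.40), and Cyp26b1 on average to MSTRG.17067.3 (2.30), MSTRG.17067.4 (0.925) and NM_175475 (0.548). Aldh1a2, Cyp26a1 and Cyp26c1 had 1 transcript each, and Crabp1 and Rarg gave 88.5% or more of their reads to NM_013496 and NM_001042727.

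Other genes of the pathway were counted from 4 lists of 68 names in all, 64 of which were in the table. In the slope on age, edgeR called 0 of the 57 tested, against 0.178% of all features. At an unadjusted p of 0.05 or less 2 were higher and 8 lower, against 15.3% of all features in both directions. In limma 0 were called, against 0.166%. DESeq2 called 2 lower, Aldh1a7 and Ccnd2, against 1.88% of all features in both directions. The median slope of the 57 genes was -0.0048 per month, beside 0.0004 over all features. Between 3M and 18M edgeR, DESeq2 and limma each called 0, against 0.0647%, 1.02% and 0.0557% of all features. At an unadjusted p of 0.05 or less there were 7 of 55, against 12.0% of all features. All 18M libraries were below all 3M libraries in 10 of 55 genes tested and above in 2, against 9.97% and 9.57% of all features.

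In the list of uptake, storage and carriers, 11 genes were tested in the slope and 0 called by edgeR, against 0.178% of all features. At an unadjusted p of 0.05 or less 1 was higher, against 15.3% of all features in both directions. Bco1, which cleaves carotene into retinal, was at 41.3, 41.3 and 40.4 CPM at 3M and 45.3, 45.5 and 52.1 at 18M (slope 0.016 per month, SE 0.0069, edgeR, adjusted p = 0.306). Lrat, which esterifies retinol for storage, had a slope of -0.0045 (SE 0.0062, adjusted p = 0.774), and Rbp7, a retinol-binding protein, one of -0.028 (SE 0.044, adjusted p = 0.802).

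In the list of retinol and retinal enzymes, 19 genes were tested in the slope and 0 called by edgeR, against 0.178% of all features. The median slope was -0.016 per month, beside 0.0004 over all features. At an unadjusted p of 0.05 or less 4 were lower, against 15.3% of all features in both directions. Beside Aldh1a7, these included Akr1b10, an aldo-keto reductase, at 2.11, 2.02 and 2.16 CPM at 3M and 1.24, 1.88 and 1.63 at 18M (slope -0.040, SE 0.016, edgeR, adjusted p = 0.256). Dhrs3, which turns retinal back into retinol, was at 6.84, 6.17 and 5.60 CPM at 3M and 5.51, 5.37 and 4.95 at 18M (slope -0.024, SE 0.0097, adjusted p = 0.28).

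Among receptors and cofactors, 15 genes were tested in the slope and 0 called by edgeR, against 0.178% of all features. At an unadjusted p of 0.05 or less 1 was higher and 2 were lower, against 15.3% of all features in both directions. The corepressor Ncor1 had a slope of -0.015 per month (SE 0.0057, edgeR, adjusted p = 0.248) and the coactivator Ncoa3 one of -0.016 (SE 0.0060, adjusted p = 0.252). Rxrg, a retinoid X receptor at 1.22 to 1.96 CPM, had one of 0.024 (SE 0.010, adjusted p = 0.296).

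Among the response genes of germ cells, 12 genes were tested in the slope and 0 called by edgeR, against 0.178% of all features. At an unadjusted p of 0.05 or less 2 were lower, against 15.3% of all features in both directions. Ccnd2, a cyclin of differentiating spermatogonia, was at 3.45, 3.39 and 2.82 CPM at 3M, 3.90, 3.15 and 3.90 at 6M, 2.34, 2.65 and 2.21 at 12M, and 2.52, 2.09 and 1.87 at 18M. All 18M libraries were below all 3M libraries, and the slope was -0.049 per month (SE 0.011, adjusted p = 0.0985 in edgeR and 0.00572 in DESeq2). Zbtb16, a regulator of undifferentiated spermatogonia, had a slope of -0.028 (SE 0.010, adjusted p = 0.233), and Sall4, also of spermatogonia, one of -0.017 (SE 0.0088, adjusted p = 0.374).

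**Figure D5:**
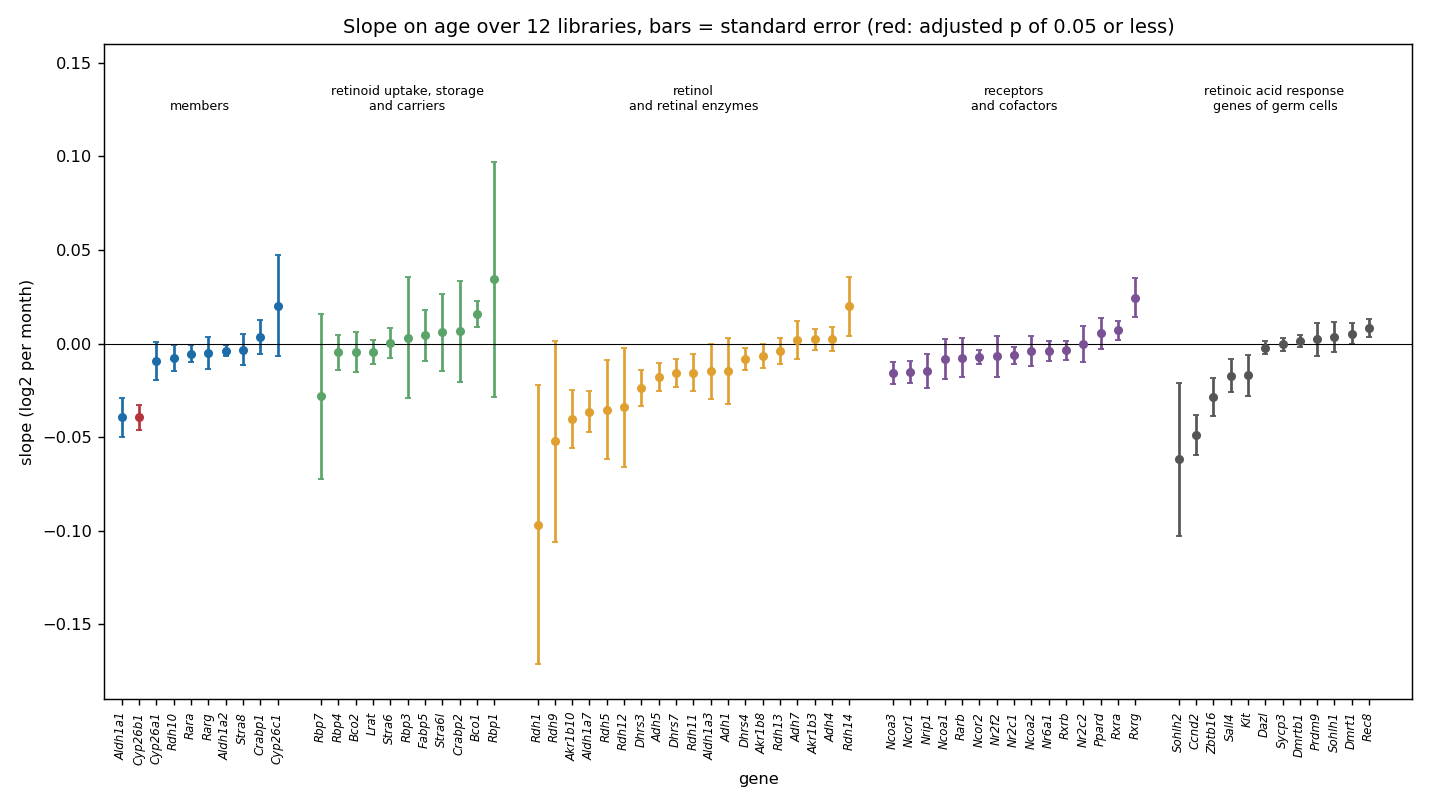
Slope on age (y axis, log2 per month, bars of 1 standard error) for the 10 genes and for the 57 tested genes of the 4 pathway lists, sorted within each list. Cyp26b1, in red, is the one gene that passed the adjusted threshold in edgeR.

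The genes whose levels ran most like each of these over the 12 libraries were read from the Pearson correlation of log2(CPM + 1) with 15337 genes at a mean of 1 CPM or more. The libraries share depth, RNA quality and age, so the values are descriptions. Those given are the highest of 15337 over 12 libraries, and this choice alone can make them high. Nearest to Cyp26b1 were Txndc5 (r = 0.934) and Ggt5 (0.926), and to Aldh1a1 Abca1 (0.963) and Tmem35 (0.962). Nearest to Aldh1a2 were Acbd5 (0.922) and Tmtc3 (0.915), to Rdh10 1700028I16Rik (0.877) and Mapk4 (0.856), and to Cyp26a1 Foxp1 (0.899) and Hspa14 (0.893). For Stra8 they were Tbcel (0.935) and Ensa (0.911), for Rara Npas2 (0.894) and Caskin1 (0.887), for Rarg Fez2 (0.940) and Akr1a1 (0.897), and for Crabp1 Gm16853 (0.943) and Zscan21 (0.937).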

How the data were processed

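Total RNA of 12 testes was sequenced. The authors aligned reads with HISAT2 to mm10 and assembled and quantified transcripts with StringTie 1.3.3b. The deposited read counts are estimated counts per transcript, which the authors derived from mean coverage and transcript length and which hold whole numbers only. FPKM, also deposited, corrects for the length of a transcript and the depth of a library, with no further scaling by the authors. Reads and FPKM of the transcripts of class =, c, j and o were summed per gene, and transcripts of other classes formed further features. Depth per exon was read from the authors' assembled transcripts of each library.

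Differential expression was tested by the quasi-likelihood F-test of edgeR 4.0.16 (R 4.3.3) on these counts, with TMM, the filterByExpr filter and Benjamini-Hochberg adjustment over all features. A comparison of 2 ages used their 6 libraries, and the slope used all 12 with age in months as a number. DESeq2 1.42.0 (Wald test) and limma 3.58.1 on log2(FPKM + 0.1) in genes of 0.1 FPKM or more on average were alternatives, beside other normalizations and filters, other transcript classes, all 12 libraries in each fit, the mouse number as a block, a log2 change of 1 as a further criterion and each library left out. The tests were tried on simulated counts. Python 3.11.15 (pandas 2.3.3, matplotlib 3.10.9) was used for summaries and plots.

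Named are all 10 genes, their transcripts of 0.5 FPKM or more on average, the called or otherwise the 3 genes of smallest unadjusted slope p of each pathway list, the 2 genes of nearest pattern and the called markers. The genes, lists and tests were chosen with earlier results of these data known. The depth along exons and the fit without 12M-3 and 18M-3 were added after seeing the data, as was Sohlh2, named for its values.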

Additional observations from a re-analysis of the deposited data

How the results depend on the processing

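Of 777 values of single genes under the alternatives, 713 kept their direction and their side of the threshold, 16 kept the direction but lost the call (all for the slope of Cyp26b1), 4 gained it (all in DESeq2) and 44 changed sign, all of them uncalled. In DESeq2 the number of the 10 genes called was 1 between 3M and 18M, from 3M to 6M and from 6M to 12M, and 2 in the slope, where 2 pathway genes were called, and 1 of their transcripts was called between 3M and 18M. In the slope, 0 of the 10 genes were called without the filter on low counts, with the replicate block, with exact RefSeq transcripts, with limma on FPKM and without 12M-3 and 18M-3, and 0 to 1 with 1 library left out. Leaving out 1 library gave 0 to 1 pathway genes from 3M to 6M and from 6M to 12M.

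Over all genes, the calls between 3M and 18M numbered 16, and 297 in DESeq2, 0 with the block, 40 with exact RefSeq transcripts, 25 with all 12 libraries in the fit and 18 to 34 with 1 library left out. From 3M to 6M they numbered 18, and 96 in DESeq2, 2 with the block, 6 with all 12 libraries and 20 to 41 with 1 left out. From 6M to 12M they numbered 10, and 126 in DESeq2, 2 with the block, 18 with exact RefSeq transcripts, 22 in limma and 12 to 23 with 1 left out. From 12M to 18M they numbered 5, and 56 in DESeq2, 1 with the block, 10 in limma, 1 with all 12 libraries and 7 to 23 with 1 left out. In the slope they numbered 45, and 559 in DESeq2, 23 with the block, 9 with exact RefSeq transcripts, 10 without 12M-3 and 18M-3, and 13 (without 18M-3) to 115 (without 18M-1) with 1 left out. The labels say nothing of a mouse number beyond the number. The deviations of same-numbered libraries had correlations between -0.065 and 0.064 over 18 pairs. Mouse 3 had the most reads at each age. It also had the lowest median 5'-to-3' ratio at 6M (0.804), 12M (0.662) and 18M (0.713), though not at 3M. Whether same-numbered libraries shared handling was not tested. With the block the slope of Cyp26b1 had an edgeR adjusted p of 0.083.

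Signs changed with transcripts of every class for Rara (0.024 between 3M and 18M, 0.032 from 12M to 18M, 0.0022 per month), with exact RefSeq transcripts for Rdh10 (0.33 from 3M to 6M), and for Aldh1a2 from 12M to 18M (-0.0005 with the size factors of DESeq2, -0.0039 without the filter, -0.0007 in DESeq2, -0.0015 with exact RefSeq transcripts, -0.0005 with every class). With 1 library left out, the log2 differences between 3M and 18M ran from -0.21 to 0.092 for Stra8, -0.14 to 0.10 for Rarg and -0.066 to 0.26 for Crabp1. From 3M to 6M they ran from -0.22 to 0.078 for Stra8, -0.15 to 0.0025 for Rara and -0.14 to 0.18 for Crabp1. From 6M to 12M they ran from -0.12 to 0.11 for Cyp26a1, -0.056 to 0.0081 for Aldh1a2, -0.0082 to 0.14 for Rara and -0.058 to 0.077 for Crabp1. From 12M to 18M they ran from -0.099 to 0.12 for Cyp26a1, -0.63 to 0.035 for Cyp26c1, -0.24 to 0.069 for Aldh1a1, -0.026 to 0.031 for Aldh1a2, -0.076 to 0.16 for Rarg and -0.042 to 0.12 for Crabp1. The slopes ran from -0.010 to 0.0027 for Stra8, -0.013 to 0.0010 for Rarg and -0.0021 to 0.012 for Crabp1. The cause of these changes was not tested. Depth limits Cyp26c1 and Cyp26a1 most, with 6 to 20 and 52 to 88 reads per library.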

Other observations

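Sohlh2, a transcription factor of early germ cell differentiation among the response genes, was singled out after its values were seen. It was measured at 45.4 CPM in 6M-1 and 39.7 CPM in 6M-3, but at 10.6 CPM in 6M-2, and the libraries of the other ages lay between 8.97 and 12.55 CPM. With 6M-2 left out, edgeR called it higher from 3M to 6M (log2 difference 1.93, adjusted p = 0.0235) and lower from 6M to 12M (-2.07, adjusted p = 0.00507), while with all libraries it was called in neither (adjusted p = 0.991 and 0.65), nor without 6M-1 (1.0 and 0.777). The library 6M-2 was the one of 6M that lay among the other ages, so the calls without it follow from that choice. They rest on 6M-1 and 6M-3 alone at 6M and are no support for a change. The cause was not tested.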
